A study of Brassica napus with 12 samples.

Results

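The genes described here lie in 11 blocks of neighbouring genes on 8 of the A chromosomes of oilseed rape (Brassica napus), picked because their transcripts stood lower in the cultivar Zhongshuang 9 than in the cultivar Avatar. Membership was read from the gene identifier, which names a chromosome and a gene number along it, and 1359 of the 101040 annotated coding sequences in the series fell inside the ranges. Named here by chromosome, with a letter where a chromosome holds a pair of them, the blocks are A01a (gene numbers 1970 to 2780), A01b (14520 to 15510), A02 (7970 to 9410), A03a (850 to 1940), A03b (27520 to 28560) and A04 (13930 to 15060). The others are A05 (6990 to 9110), A06 (7930 to 9110), A08 (27540 to 28280), A10a (23500 to 24810) and A10b (25620 to 27250). They hold from 75 genes (A08) to 213 genes (A05). Seedlings were 16 days old at harvest, and RNA came from the first true leaf, in 4 groups with 3 libraries each: Zhongshuang 9 after 24 h of full submergence, Avatar after 24 h of full submergence, Zhongshuang 9 after 24 h in air and Avatar after 24 h in air. Both cultivars grew in the same soil mix under short days, and air plants stood in like boxes without water. Libraries carry the replicate numbers 1, 3 and 4 in every group. The labels do not say whether a library is a single plant or several, so the p-values below measure the spread between these samples, which may be technical.

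Oilseed rape is an allotetraploid. Its nucleus holds an A chromosome set that came from a relative of turnip and a C set that came from a relative of cabbage, and most genes exist as a pair of closely similar A and C copies. Segments of the A and C chromosomes can replace each other, be lost or be duplicated, and cultivars are known to differ in such segments as well as in single genes. Full submergence cuts leaves off from gas exchange, and plants answer with broad changes in transcript levels that shift metabolism away from respiration and growth. The files give no gene names or products, and only 21 of the 1359 block genes matched a RefSeq gene table, none with a name beyond its identifier. Genes are therefore called by identifier and no function is given to them, and the leaf label could not be checked against marker genes.

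Total depth ran from 24389813 to 35873196 estimated counts per library, and between 0.833% and 1.704% of them fell on block genes. A count of 0 in a library allows up to 3 counts, which is 0.0704 to 0.114 CPM (counts scaled for library size with TMM factors), counting error only. A library of submerged leaves stood apart before any result is given. Zhongshuang 9 submergence replicate 1 differed from replicates 3 and 4 of its group by a chi-square per gene of 79.9 and 70.1, against 4.71 between replicates 3 and 4 and 11.9 to 47.9 within the other groups. Results that rest on it are given with and without it. Earlier results of these data gave 5 libraries with shifted segments, stretches of neighbouring genes that stood away from the rest of the group: this one, Zhongshuang 9 air replicate 4, Avatar submergence replicate 1 and Avatar air replicates 3 and 4.

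The blocks were lower in Zhongshuang 9, as their choice requires. Summed over all 1359 genes, the length-scaled abundance (TPM) was 8164 ± 961 in submerged Zhongshuang 9 and 13902 ± 1016 in submerged Avatar, and 6201 ± 72.0 in Zhongshuang 9 in air and 12789 ± 214 in Avatar in air (SD, n = 3 each). Block genes took 1.242%, 0.990% and 0.998% of the counts in replicates 1, 3 and 4 of submerged Zhongshuang 9, against 1.704%, 1.629% and 1.597% in submerged Avatar. In air they took 0.833%, 0.846% and 0.859% in Zhongshuang 9 and 1.640%, 1.580% and 1.531% in Avatar. No Zhongshuang 9 library reached any Avatar library, and replicate 1 was the highest of the submerged Zhongshuang 9 libraries. In bulk leaves, fewer cells that use these genes and less transcript per cell cannot be told apart.

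The lower level was shared by many genes of each block. Over the 574 block genes that averaged 2 CPM or more, the median gene in the 3 submerged Zhongshuang 9 libraries stood at 71.8%, 57.4% and 58.2% of the mean of submerged Avatar, whose own libraries lay between 99.2% and 101.8%. In air it stood at 61.8%, 61.7% and 65.3% of the Avatar mean, with Avatar between 98.2% and 100.8%. The 15298 other genes of A chromosomes at that level stood at 91.5% to 98.4% in submerged Zhongshuang 9 and 99.9% to 103.8% in Zhongshuang 9 in air. In air, A02 was the lowest block, at 51.1% to 58.7%, and A10a the highest, at 67.6% to 73.4%, and no Zhongshuang 9 library overlapped the Avatar libraries in any of the 11 blocks. Avatar itself varied most in A10b, at 124.2% in air replicate 1 against 87.8% and 90.8% in replicates 3 and 4, and in A03a, at 79.1% against 108.1% and 118.9%. Under submergence A01a, A01b, A02, A03a, A03b and A05 lay between 46.2% and 69.5% in all 3 Zhongshuang 9 libraries. In A04, A06, A08 and A10a, replicate 1 stood at 88.9%, 96.9%, 99.8% and 88.8%, while replicates 3 and 4 lay between 51.9% and 69.5%. In A10b replicate 1 was also the highest but closer to its group, at 67.0% against 54.3% and 54.0%. In A06 and A08 replicate 1 lay inside the range of the submerged Avatar libraries.

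**Figure D1:**
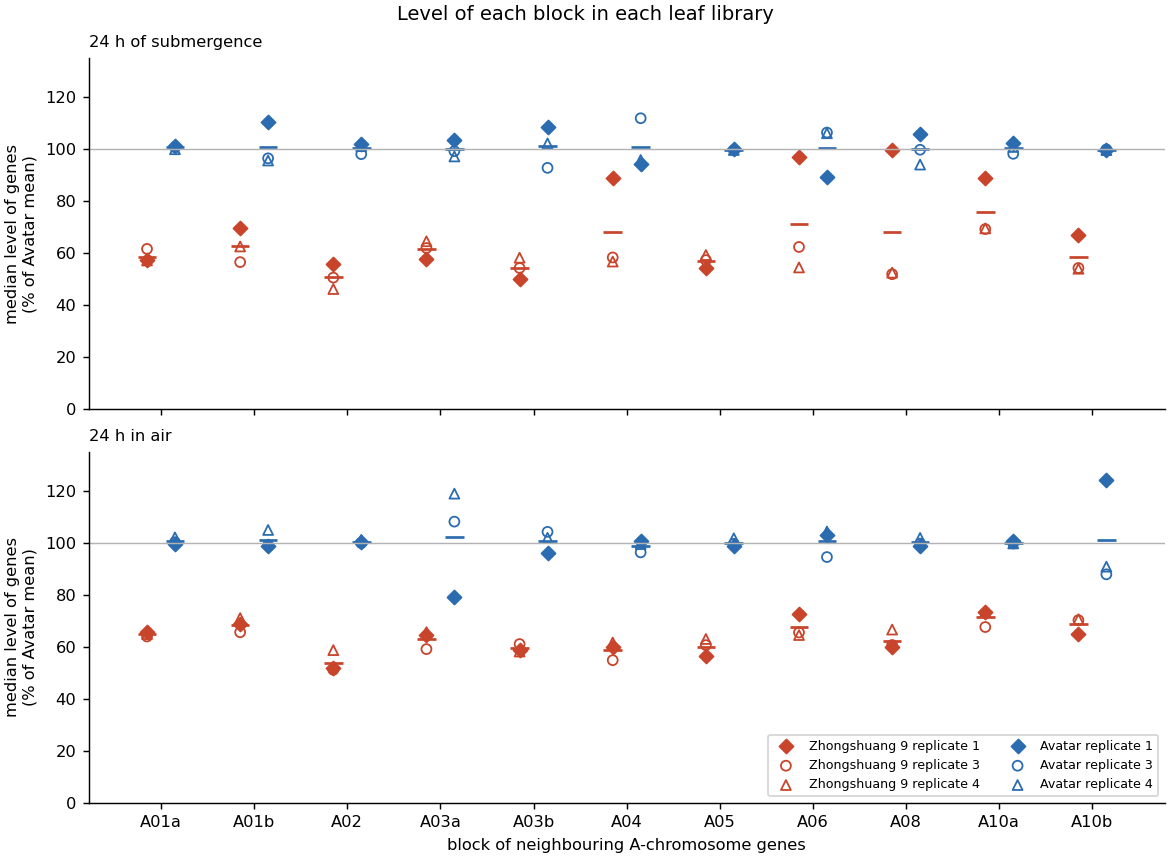
Level of each block in each library, as the median over its genes that averaged 2 CPM or more, in percent of the Avatar mean of the same treatment; the upper panel shows submergence and the lower panel air, symbols are libraries and bars are means of 3 libraries. In air all Zhongshuang 9 libraries lie between 51.1% and 73.4%; under submergence Zhongshuang 9 replicate 1 (filled diamonds) reaches 96.9% in A06 and 99.8% in A08.

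Gene by gene, 851 of the 1359 block genes (62.6%) had enough counts to enter the test across all genes, against 60.0% of other A-chromosome targets and 55.1% of all targets. A further 225 had no count in any library. The median log2 fold change of Zhongshuang 9 over Avatar was -0.76 under submergence and -0.75 in air, where all 55674 tested genes had medians of -0.04 and 0.07. Averaged over both treatments, the quartiles of block genes were -1.59 and -0.09. The average was negative in 659 block genes (77.4%), against 52.6% of other A-chromosome genes, and below -1 in 345 (40.5%), against 16.3%. Not every gene followed: 250 (29.4%) lay within 0.5 of 0 and 61 (7.2%) lay above 1. Under submergence, 330 block genes passed edgeR's adjusted threshold as lower and 49 as higher, and among all genes 14.2% were lower and 10.3% higher. In air the same test gave 330 lower and 34 higher block genes, and 10.5% and 6.6% among all genes. The blocks were picked on this contrast, so these counts describe them and test nothing.

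**Figure D2:**
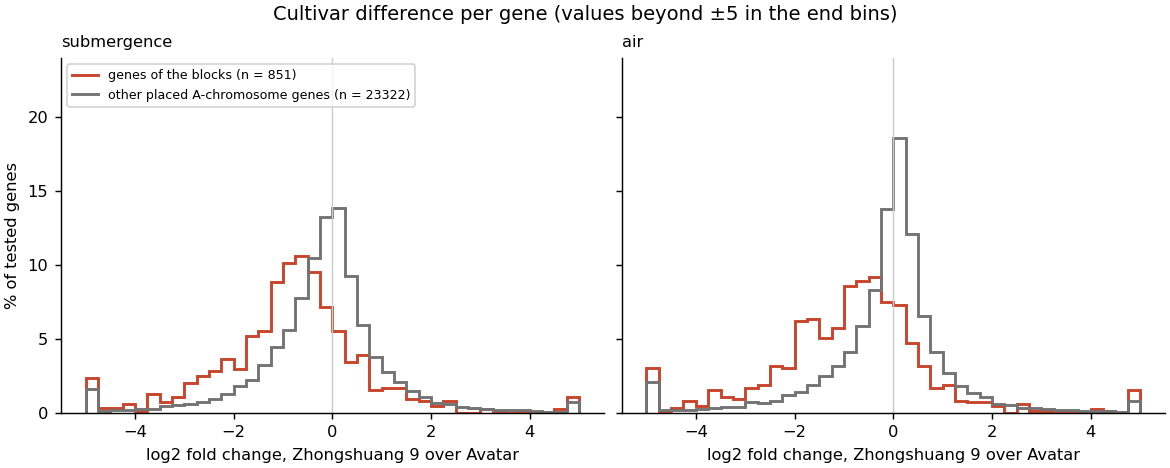
Distribution of the log2 fold change of Zhongshuang 9 over Avatar under submergence (left) and in air (right), as the percentage of tested genes per bin, for the 851 tested block genes and the 23322 other tested A-chromosome genes. The block genes are shifted to the left over a broad range, with medians of -0.76 and -0.75, and keep a tail of genes above 0.

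The gene nearest to the median of its block shows the usual size of the difference. In A02 this was BnaA02g08530D, with 3.75, 3.26 and 4.45 CPM in submerged Zhongshuang 9 and 12.6, 7.83 and 6.49 CPM in submerged Avatar. In air it had 7.77, 8.07 and 9.86 CPM in Zhongshuang 9 and 13.2, 15.1 and 13.8 CPM in Avatar. The cultivars did not overlap in either treatment. In A05, BnaA05g08390D averaged 5.57 ± 1.43 CPM in submerged Zhongshuang 9 and 10.1 ± 0.516 CPM in submerged Avatar, and 5.92 ± 0.128 CPM in Zhongshuang 9 in air and 10.5 ± 1.68 CPM in Avatar in air (SD, n = 3 each), again with no overlap. In A08, BnaA08g27770D had 55.0, 29.7 and 32.7 CPM in submerged Zhongshuang 9 and 43.8, 53.0 and 55.9 CPM in submerged Avatar. Its replicate 1 lay inside the Avatar range and the other libraries below it. BnaA10g23710D of A10a had 11.1, 5.07 and 6.50 CPM in submerged Zhongshuang 9 and 9.68, 10.7 and 9.92 CPM in submerged Avatar, with replicate 1 above the Avatar range and the other libraries below it. In A10b, BnaA10g26240D had 6.21, 3.87 and 4.04 CPM in submerged Zhongshuang 9 and 6.90, 6.90 and 7.38 CPM in submerged Avatar, so that replicate 1 was the nearest to Avatar but still below it. In A06, by contrast, BnaA06g08220D had 3.57, 4.58 and 3.75 CPM in submerged Zhongshuang 9 and 5.53, 7.14 and 5.72 CPM in submerged Avatar. Replicate 1 was the lowest library there and all 3 lay below Avatar, unlike the median gene of that block. In the remaining 5 blocks the averaged log2 fold change of the nearest gene ran from -0.68 for BnaA03g01550D to -0.96 for BnaA03g28090D, with BnaA01g01990D, BnaA01g15440D and BnaA04g15000D between them.

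Within the blocks the depth of the difference was uneven. Block medians under submergence ran from -0.44 in A10a to -0.97 in A03b, and in air from -0.62 in A10a to -1.01 in A02. Without Zhongshuang 9 submergence replicate 1, the submergence median was -1.07 in place of -0.56 in A06, -0.96 in place of -0.55 in A08, -1.17 in place of -0.86 in A02, -0.98 in place of -0.76 in A04 and -0.65 in place of -0.44 in A10a. The numbers of genes called lower then became 32 in place of 9 in A06, 31 in place of 8 in A08 and 40 in place of 37 in A02. They became 29 in place of 16 in A04, 30 in place of 14 in A10a and 69 in place of 51 in A10b. A01a, A03a and A05 gave fewer, at 30 in place of 31, 26 in place of 28 and 69 in place of 73. All block genes together gave 423 in place of 330 (16.4% of all genes were called lower in that fit). At the borders, only genes that averaged 2 CPM or more were used. The first 20 genes inside a block had averaged medians between -1.06 and -0.34, and the 20 genes before it between -1.14 and 0.21. The last 20 genes inside had medians between -1.26 and 0.06, and the 20 genes after the block between -0.62 and 0.28. Some borders were sharp. In A03b the last 20 genes had a median of -1.06 and the next 20 of 0.28, and in A10a the first 20 genes inside had -0.37 and the 20 before the start 0.21. Others did not end at the stated number: the 20 genes before A02 stood at -1.14 and those before A01a at -0.84, while the last 20 inside A01b stood at 0.06.

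**Figure D3:**
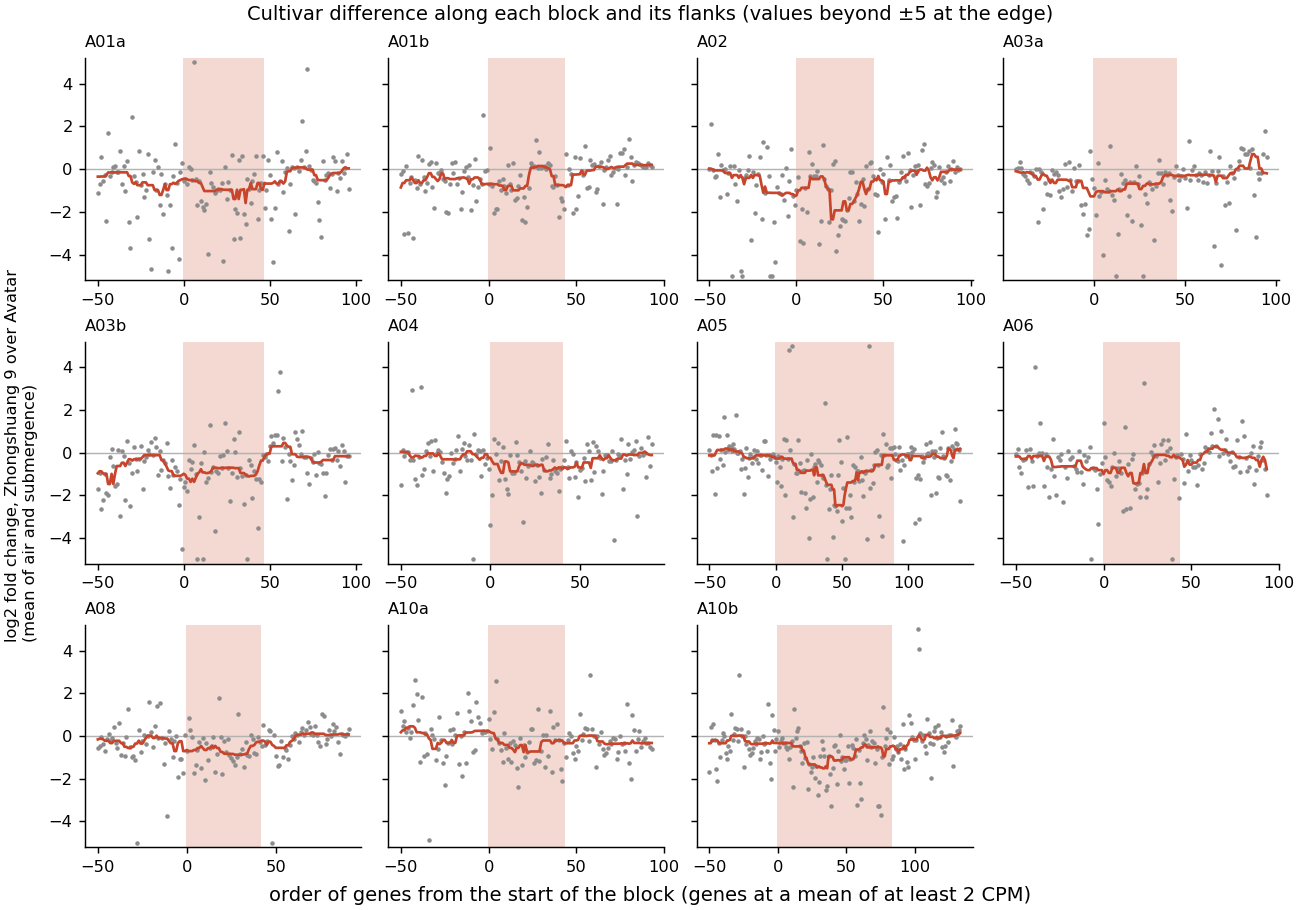
Log2 fold change of Zhongshuang 9 over Avatar, averaged over air and submergence, for genes that averaged 2 CPM or more in their order along the chromosome; shading marks the block, points are genes, and the line is a running median of 15 genes. The line lies below 0 over most of each block, is deepest in the middle of A02 and A05, and returns to 0 just after A03b but not before A01a or A02.

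The genes with the highest TPM carried much of the summed gap in TPM. These were picked after their values were seen. BnaA03g27890D of A03b, a coding sequence of 159 bases, had 137.1, 140.2 and 179.6 TPM in submerged Zhongshuang 9 and 2148, 1981 and 1355 TPM in submerged Avatar. In air it had 126.3, 111.9 and 88.1 TPM in Zhongshuang 9 and 1767, 1483 and 1631 TPM in Avatar, the highest value of any block gene there. All Zhongshuang 9 values were far below all Avatar values, in A03b a block whose summed TPM was 1102 ± 35.1 in submerged Zhongshuang 9 and 3254 ± 549 in submerged Avatar, and 713 ± 86.0 in Zhongshuang 9 in air and 2732 ± 117 in Avatar in air (SD, n = 3 each). Its neighbour BnaA03g27900D had 365.5 ± 33.3 TPM in submerged Zhongshuang 9 and 556.6 ± 28.7 TPM in submerged Avatar, and 193.5 ± 26.2 TPM in Zhongshuang 9 in air and 415.5 ± 23.6 TPM in Avatar in air. TPM is scaled by length, so a short sequence weighs more in it than in CPM. In CPM, BnaA03g27890D averaged 7.72 ± 0.634 in submerged Zhongshuang 9 and 98.5 ± 3.53 in submerged Avatar. BnaA03g27900D, of 1107 bases, averaged 562 ± 60.4 CPM in submerged Zhongshuang 9 and 859 ± 70.7 CPM in submerged Avatar. BnaA10g27170D of A10b, the most abundant block gene in Zhongshuang 9, had 884.3, 604.1 and 687.2 TPM in submerged Zhongshuang 9 and 951.8, 935.9 and 974.6 TPM in submerged Avatar. In this gene replicate 1 was nearest to Avatar, but in BnaA03g27890D and BnaA03g27900D it was the farthest from Avatar. The 10 most abundant block genes held 29.5% to 31.7% of the blocks' TPM in the Zhongshuang 9 libraries and 32.8% to 40.3% in the Avatar libraries.

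A few genes were near all or nothing between the cultivars. The most negative differences were both in A03a. BnaA03g01470D had no count in submerged Zhongshuang 9 and 22.1, 23.8 and 27.2 CPM in submerged Avatar, at least 262-fold lower in Zhongshuang 9 with a floor of 3 counts per library. In air the 3 Zhongshuang 9 libraries together held 1 count of it, against 17.1 ± 0.978 CPM in Avatar (SD, n = 3). BnaA03g01080D had no count in submerged Zhongshuang 9 and 13.4, 10.6 and 7.76 CPM in submerged Avatar. In Avatar in air it had 8.41 and 7.91 CPM in replicates 1 and 4 but 0.0393 CPM in replicate 3, so the low level occurred in an Avatar library too. In the other direction, BnaA05g07310D had 6.10 ± 2.53 CPM in submerged Zhongshuang 9 and 10.1 ± 1.27 CPM in Zhongshuang 9 in air (SD, n = 3 each), and no count in any Avatar library. It was at least 77.8-fold higher in Zhongshuang 9 under submergence and at least 92.0-fold higher in air. BnaA05g08640D had 199, 225 and 156 CPM in submerged Zhongshuang 9 and 15.7, 2.63 and 1.79 CPM in submerged Avatar, and 14.3, 8.35 and 7.27 CPM in Zhongshuang 9 in air and 0.187, 0.114 and 0.135 CPM in Avatar in air. Both genes higher in Zhongshuang 9 thus sat in A05, in a block whose median gene was lower there.

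Block genes with counts in 1 cultivar only were rare, as among other A-chromosome targets. Only 3 of 1359 genes (0.221%) had no count in any Zhongshuang 9 library and counts in all 6 Avatar libraries, against 0.319% of other A-chromosome targets. These were BnaA04g14570D, at 2.89 ± 0.529 CPM in submerged Avatar and 2.56 ± 1.04 CPM in Avatar in air, and the sparse BnaA02g08030D and BnaA05g07090D. Counts in all 6 Zhongshuang 9 libraries and in no Avatar library occurred in 4 block genes (0.294%), against 0.175% of other A-chromosome targets: BnaA05g07310D, BnaA06g08880D, BnaA03g01000D and BnaA05g07050D. All 12 libraries had counts for 752 block genes (55.3%), against 54.5% of other A-chromosome targets. Like other A-chromosome targets, most block genes were thus counted in both cultivars. Reads can be divided between similar targets, so a count does not show that a gene is present. Loss of genes was not tested.

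Features outside the rule differed little from the rest of the A chromosomes. Tested block genes had a median coding length of 1152 bases, against 1083 bases for other A-chromosome genes. Their median level was 4.29 CPM, against 4.10 CPM. Split into 3 sets of like size by level, they had averaged median differences of -0.73, -0.84 and -0.69 for low, middle and high levels, and by coding length -0.75, -0.77 and -0.73 for short, middle and long. The lower level was thus not limited to weakly expressed or short genes. The share of values above 0 that were not whole numbers, which marks reads divided between similar targets, was 64.1% ± 1.52 in submerged Zhongshuang 9 and 62.2% ± 2.47 in submerged Avatar for block genes, and 62.7% ± 0.360 in Zhongshuang 9 in air and 59.6% ± 1.48 in Avatar in air (SD, n = 3 each). For other A-chromosome genes these shares were 61.4% ± 1.23, 61.3% ± 1.52, 60.6% ± 0.252 and 59.3% ± 0.865. Divided reads were thus common in the blocks. Under submergence the cultivars overlapped, with block shares of 63.0% to 65.9% in Zhongshuang 9 and 59.9% to 64.8% in Avatar. In air Zhongshuang 9 had slightly more, in block genes and in other A-chromosome genes. Levels of A genes with a near-identical C copy are uncertain individually, and what part this sharing has in the cultivar difference was not tested.

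Across the 2 treatments the cultivar difference was alike by gene, in the blocks about as much as over all tested genes. The Pearson correlation of the difference under submergence with that in air was 0.80 over the 851 tested block genes and 0.76 over all tested genes. This is a description over genes that share the same libraries. By block the correlation ran from 0.63 in A01a to 0.88 in A05. A closer look used the 270 block genes that differed by at least 1 (log2) between the cultivars in air and reached a mean of 2 CPM, and asked of each submerged library how far it stood from the mean of the other libraries of its group, in the direction of Avatar. This measure was added after the values by library were seen. In Zhongshuang 9 submergence replicate 1, the median shift was 2.09 in A06, where submerged Avatar lay 1.89 away, 1.41 of 1.65 in A08, 1.16 of 1.35 in A10a, 1.37 of 2.14 in A10b and 0.68 of 1.39 in A04. In the other 6 blocks it was between 0 and 0.21, where Avatar lay 1.54 to 2.27 away. The median shift of replicate 1 thus covered most of the way to Avatar in A06, A08 and A10a and part of it in A10b and A04, and little of it in the other 6 blocks. Counted by gene, it was nearer to Avatar in 92 of 124 genes (74.2%) of the 5 blocks A04, A06, A08, A10a and A10b and in 15 of 146 genes (10.3%) of the others. This grouping of blocks was made from the same values and carries no test.

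**Figure D4:**
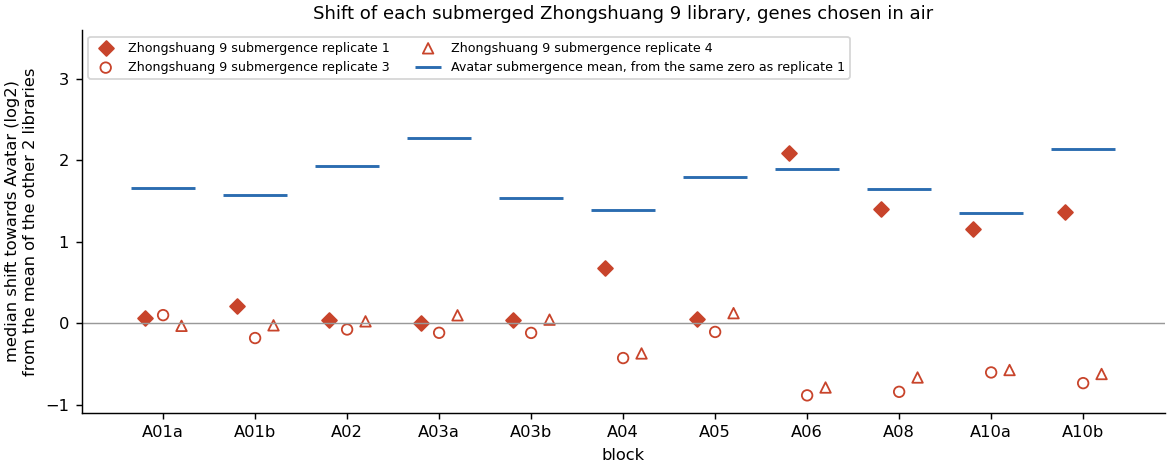
Median shift of each submerged Zhongshuang 9 library towards Avatar, in log2 units from the mean of the other 2 libraries of its group, over block genes that differed by at least 1 in air; blue lines mark where the submerged Avatar mean lies for replicate 1. Replicate 1 sits near the Avatar line in A06, A08 and A10a, part of the way in A04 and A10b, and near 0 in the other 6 blocks; replicates 3 and 4 fall below 0 in the same 5 blocks because replicate 1 is in the mean they are set against.

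The shift of replicate 1 did not stop at the block ends and was not particular to the blocks. The 20 genes chosen in the same way before A06 had a shift of 1.03 and those after it of 1.48. Those after A02, a block with a shift of 0.04, had 0.86. By contrast the 20 genes after A04 had 0.03 and those before A10a 0.15. Over all blocks replicate 1 was nearer to Avatar in 107 of 270 genes (39.6%), against 1139 of 3124 other A-chromosome genes (36.5%) and 1086 of 2759 C-chromosome genes (39.4%). In replicates 3 and 4 these counts were 12 and 13 of 270 block genes (4.4% and 4.8%). They were 10.4% of other A-chromosome genes in each, and 21.3% and 20.9% of C-chromosome genes. Replicate 1 is in the mean that replicates 3 and 4 are set against. In the 9 libraries of the other groups the block shifts towards the other cultivar lay between -0.52 and 0.38.

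Submergence changed the block genes about as often as all genes. In Zhongshuang 9, 230 of 851 tested block genes rose (27.0%) and 177 fell (20.8%), against 22.5% and 22% of all tested genes (edgeR's quasi-likelihood test, Benjamini-Hochberg adjusted p under 0.05). Together these were 407 genes (47.8%), against 44.5%. In Avatar, 203 rose (23.9%) and 157 fell (18.4%), against 21.6% and 18.4% of all tested genes, together 360 genes (42.3%) against 40%. The median log2 fold change of submergence over air was 0.10 in Zhongshuang 9 and 0.11 in Avatar, where all genes had 0.01 and 0.11. Without Zhongshuang 9 submergence replicate 1 the Zhongshuang 9 median of block genes was -0.09, with 215 rises and 200 falls, and all genes then gave 21.3% and 21.8%, so the direction of the block median in Zhongshuang 9 rested on that library. Rises made up 56.5% of the calls in Zhongshuang 9 and 56.4% in Avatar. Scaling by library totals alone made these shares 71.1% and 74.4%, and limma on log2 TPM 68.6% to 71.7%. With library totals the median of all genes moved to 0.29 in Zhongshuang 9 and 0.45 in Avatar.

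The blocks responded unevenly. A01a had the most falls for its size, with 18 genes up and 27 down of 62 in Zhongshuang 9 and 17 up and 24 down in Avatar, and medians of -0.32 and -0.24. The other block on that chromosome, A01b, went the other way. It had 28 up and 13 down of 62 in Zhongshuang 9 and 27 up and 12 down in Avatar, with medians of 0.34 and 0.39. A10b had 36 up and 19 down of 119 in Zhongshuang 9 and 40 up and 12 down in Avatar. A10a had 28 up and 8 down of 80 in Zhongshuang 9 and 14 up and 6 down in Avatar, with medians of 0.59 and 0.18. Without replicate 1 the Zhongshuang 9 medians were 0.24 in A10a, -0.10 in place of 0.33 in A10b, -0.13 in place of 0.13 in A06, -0.20 in place of 0.09 in A04 and -0.30 in place of -0.08 in A08. In A01a and A01b they were -0.39 and 0.34. The differences of block responses between the cultivars were not tested.

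**Figure D5:**
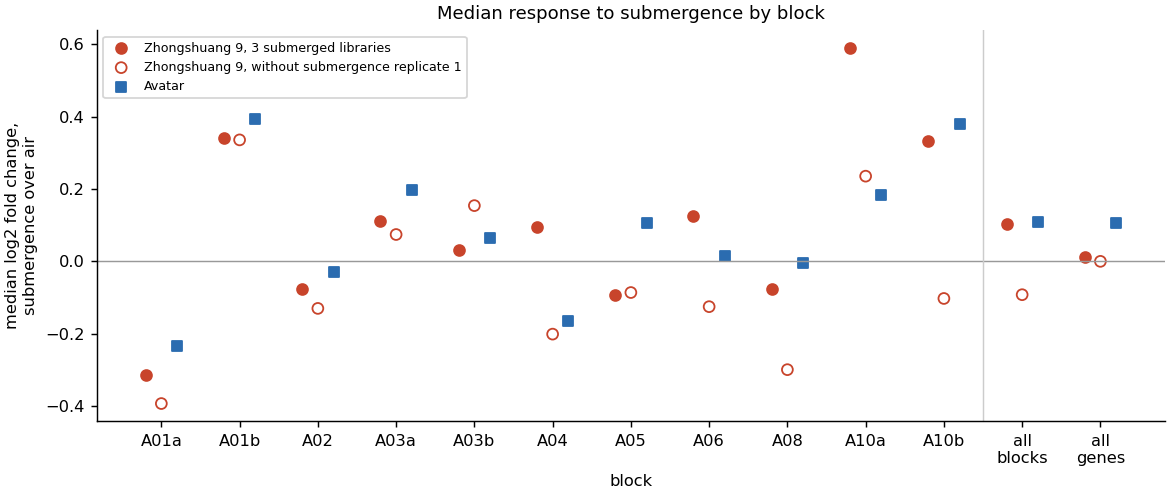
Median log2 fold change of submergence over air for the tested genes of each block, of all blocks and of all genes, in Zhongshuang 9 with all libraries (filled circles), in Zhongshuang 9 without submergence replicate 1 (open circles) and in Avatar (squares). A01a lies below 0 and A01b above 0 in both cultivars; leaving out replicate 1 lowers A04, A06, A08, A10a and A10b in Zhongshuang 9 and moves the others less.

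Of the block genes, 266 passed the threshold in both cultivars, 150 of them as rises in both, 113 as falls in both and 3 in opposite directions. These were 65.4% of the genes called in Zhongshuang 9 and 73.9% of those called in Avatar, against 68.0% and 75.6% over all tested genes. A further 141 passed in Zhongshuang 9 alone and 94 in Avatar alone, which does not show that those responses differ. The strongest falls common to both cultivars were BnaA05g07550D and BnaA03g01040D. BnaA05g07550D had 0.0251, 0 and 0.299 CPM in submerged Zhongshuang 9 and 26.3, 38.3 and 32.0 CPM in Zhongshuang 9 in air, a log2 fold change of -8.36 with an SE of 0.83 (n = 3, edgeR adjusted p = 2.35e-05). In Avatar it had 0.986, 2.70 and 3.19 CPM under submergence and 38.9, 45.0 and 70.4 CPM in air (-4.49 ± 0.63, edgeR adjusted p = 0.000306). It was nearly silenced under water in both cultivars. BnaA03g01040D averaged 0.220 ± 0.126 CPM in submerged Zhongshuang 9 and 31.3 ± 6.75 CPM in air (-7.08 ± 0.42, edgeR adjusted p = 1.21e-06), and 1.52 ± 0.399 CPM in submerged Avatar and 34.2 ± 7.07 CPM in air (-4.49 ± 0.35, edgeR adjusted p = 8.75e-06). Its levels in air overlapped between the cultivars although it lies in A03a. BnaA03g01040D also passed the test for a different response, with the larger fall in Zhongshuang 9. The difference between the responses was -2.59 ± 0.49 (SE, edgeR adjusted p = 0.037). The 3 submerged Zhongshuang 9 libraries together held only 23 counts of it. The strongest rises were BnaA10g25850D and BnaA10g24670D. BnaA10g25850D had 63.1, 27.4 and 24.3 CPM in submerged Zhongshuang 9 and at most 0.300 CPM in air (8.10 ± 0.81, edgeR adjusted p = 2.59e-05), and 29.5, 13.7 and 10.4 CPM in submerged Avatar and at most 0.300 CPM in air (6.33 ± 0.75, edgeR adjusted p = 0.000111). Replicate 1 was the highest submerged library in both cultivars. BnaA10g24670D had 1.51, 38.1 and 34.5 CPM in submerged Zhongshuang 9 and 1.31, 0.186 and 0.522 CPM in air (5.22 ± 1.03, edgeR adjusted p = 0.00205), and 18.3, 19.2 and 20.3 CPM in submerged Avatar and 0.468 ± 0.117 CPM in air (5.34 ± 1.05, edgeR adjusted p = 0.00242). In Zhongshuang 9 its rise was seen in replicates 3 and 4 and was absent from replicate 1. The 4 genes passed the threshold in both cultivars under every alternative that was run.

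Few block genes passed the test for a different response in the cultivars, at a share near that of all genes. With 3 libraries per group, a gene that did not pass may still respond differently. The test of the difference between the responses passed for 15 of 851 genes (1.76%), 6 with a higher and 9 with a lower response in Zhongshuang 9, against 1.25% of all genes, 0.438% higher and 0.808% lower. With RLE factors the split was 10 higher and 7 lower, 2.00% against 1.12% of all genes. The 15 genes lay in A03a (4), A01a (3), A05 (3), A04 (2), A02, A03b and A08, and none in A01b, A06, A10a or A10b. Because this contrast holds the cultivar differences that chose the blocks, nothing is read from the count. It depended on single libraries: it was 5 and 1 without Avatar air replicates 3 and 4, 6 and 5 without Avatar submergence replicates 3 and 4, and 9 each without Zhongshuang 9 submergence replicates 3 and 4. Leaving out Zhongshuang 9 air replicate 1, 3 or 4 gave 8, 2 or 3. It was not lower without the other replicates numbered 1. Without Zhongshuang 9 submergence replicate 1 the split was 6 higher and 12 lower. It was 10 and 8 without Avatar air replicate 1 and 7 and 9 without Avatar submergence replicate 1. Over all left-out libraries the share ran from 0.115% to 2.07% in block genes and from 0.191% to 1.56% in all genes.

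BnaA05g08250D of A05 gave the smallest p among the lower responses. It had 1.11, 1.06 and 1.31 CPM in submerged Zhongshuang 9 and 1.22, 1.43 and 1.11 CPM in Zhongshuang 9 in air, and 18.0, 21.3 and 21.1 CPM in submerged Avatar and 5.50, 3.93 and 4.63 CPM in Avatar in air. It had a log2 fold change of -0.11 ± 0.18 in Zhongshuang 9 (SE, n = 3, edgeR adjusted p = 0.642) and rose in Avatar (edgeR adjusted p = 9.87e-06). The difference between the responses was -2.22 ± 0.24 (edgeR adjusted p = 0.00567). BnaA08g27890D of A08 had 12.4, 12.1 and 10.5 CPM in submerged Zhongshuang 9 and 24.4, 26.9 and 26.6 CPM in Zhongshuang 9 in air, and 20.9, 21.0 and 18.8 CPM in submerged Avatar and 21.2, 22.7 and 19.9 CPM in Avatar in air. It fell in Zhongshuang 9 and the Avatar groups overlapped, with a difference of -1.08 ± 0.16 (edgeR adjusted p = 0.0155), and in this gene replicate 1 did not stand apart. Its call was lost without Avatar air replicate 4 (edgeR adjusted p = 0.0509), Zhongshuang 9 air replicate 3 (0.0597) or Zhongshuang 9 air replicate 4 (0.0512), and without the 5 libraries with shifted segments (0.0658).

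Among the higher responses, BnaA03g28220D of A03b had 86.8, 45.4 and 50.6 CPM in submerged Zhongshuang 9 and 11.0, 7.52 and 8.09 CPM in Zhongshuang 9 in air, and 51.0, 39.5 and 44.4 CPM in submerged Avatar and 34.4, 25.8 and 35.6 CPM in Avatar in air. The cultivars thus overlapped under submergence but not in air, where Zhongshuang 9 was lower. The difference between the responses was 2.29 ± 0.36 (SE, n = 3, edgeR adjusted p = 0.0206), and its call was lost without Avatar air replicate 4 (edgeR adjusted p = 0.0566), Avatar submergence replicate 3 or 4 (0.0569 and 0.0517) or Zhongshuang 9 air replicate 3 or 4 (0.0737 and 0.0674). BnaA02g08480D of A02 had 15.5, 13.2 and 12.1 CPM in submerged Zhongshuang 9 and 0.263, 0.0326 and 0.0336 CPM in Zhongshuang 9 in air, and 4.56, 1.20 and 2.48 CPM in submerged Avatar and 0.674, 1.33 and 0.981 CPM in Avatar in air. It was lower than in Avatar in air and higher under submergence, with a difference between the responses of 5.53 ± 0.89 (edgeR adjusted p = 0.0216). Its call was lost without Avatar air replicate 3 or 4 (edgeR adjusted p = 0.0572 and 0.0547), Avatar submergence replicate 4 (0.0524), Zhongshuang 9 air replicate 3 or 4 (0.0740 and 0.0694) and the 5 libraries with shifted segments (0.0584). On log2 TPM with 1 added its difference was 1.77. Of the other genes that passed, BnaA03g01040D is described above among the falls. BnaA03g01490D, outside the naming rule, had no count in submerged Zhongshuang 9 and 0.124 CPM in Zhongshuang 9 in air. In Avatar it had 2.07 CPM under submergence and 0.823 CPM in air. These are means of 3 libraries.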

How the data were processed

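The authors deposited estimated counts and TPM for each of 101040 coding sequences in each of 12 libraries. Per the submitters' processing notes, the tools were kallisto, limma and edgeR, with no versions. The build and the annotation were not given in the sources used here. Libraries were stranded and sequenced on an Illumina instrument, per the labels' protocols.

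Estimated counts as deposited were rounded to whole numbers and fitted with edgeR 4.0.16 (R 4.3.3): filterByExpr, TMM factors, 4 group means over all 12 libraries and the quasi-likelihood test, with Benjamini-Hochberg adjustment over 55674 genes and a threshold of 0.05. CPM uses TMM-scaled library sizes. Levels per library are log2 of CPM with 0.5 added, set against the mean of the Avatar libraries of the same treatment. The procedure was tested on simulated data. Alternatives used DESeq2 1.42.0, limma 3.58.1 on log2 TPM with 1 or 0.1 added, other scalings and filters, a replicate block, and left-out libraries.

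The blocks, gene lists and 5 libraries with shifted segments (Avatar air replicates 3 and 4, Avatar submergence replicate 1, Zhongshuang 9 air replicate 4 and Zhongshuang 9 submergence replicate 1) were chosen with earlier results of these data known. Genes were named by rule. For submergence these are the 2 genes per direction with the largest averaged log2 fold change among those called in both cultivars, and for the interaction the 2 genes per direction with the smallest p, each reaching 5 CPM in the higher groups. For the cultivar difference they are the 2 most negative and 2 most positive genes, and in each block the gene nearest to its median. A further part of the rule, by product description, and the leaf markers could not be used because no table here gives products. Of all targets, 3347 matched the RefSeq table of the Da-Ae assembly. No sequence or coordinate is given.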

Additional observations from a re-analysis of the deposited data

Results flagged for a closer look

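The interaction test (edgeR's quasi-likelihood test, Benjamini-Hochberg adjusted) passed for 15 block genes. The 4 of them named by the rule for this contrast are given here. Values are the log2 response to submergence in Zhongshuang 9 minus that in Avatar. The difference was 2.29 in BnaA03g28220D (edgeR adjusted p = 0.0206), whose level rose in the 3 submerged Zhongshuang 9 libraries above all 3 in air. It was 5.53 in BnaA02g08480D (edgeR adjusted p = 0.0216), with all submerged Zhongshuang 9 libraries above all other libraries. It was -2.22 in BnaA05g08250D (edgeR adjusted p = 0.00567), where the 3 submerged Avatar libraries lay above all others. It was -1.08 in BnaA08g27890D (edgeR adjusted p = 0.0155), where the 3 submerged Zhongshuang 9 libraries lay below all others. BnaA05g08250D kept its call in every alternative, and the other 3 genes lost it in 4 to 6 of theirs.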

How the results depend on the processing

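The number of block genes with a different response (15 of 851, 1.76%, against 1.25% of all genes) became 49 of 1127 with DESeq2 (4.35%, against 3.47%). It was 43 of 851 with limma on log2 TPM with 1 added (5.05%, against 3.59%). With a single library left out it was 1 to 18, and the share of all genes then ran from 0.191% to 1.56%. A replicate block gave 7 (0.823%, against 0.539%). Over 12 pairs of same-numbered libraries of groups compared, deviations from the group means correlated at -0.08 to 0.14. Of 12 libraries, 7 correlated best with their own number in the other treatment. These weak correlations do not settle whether the numbers pair the libraries. With the replicate block, 379 block genes changed under submergence in Zhongshuang 9 (407 without it), 44.5% against 42.2% of all genes. In Avatar 339 changed (360 without it), 39.8% against 37.9% of all genes. With a single library left out these counts lay between 307 and 418 and between 294 and 436. The shares of all genes then lay between 35.1% and 45.2% and between 32.4% and 45.6%. The median cultivar difference was -0.43 under submergence and -0.33 in air on log2 TPM with 1 added, a scale that understates differences of low genes. With a single library left out it lay between -0.89 and -0.65 under submergence and between -0.80 and -0.72 in air. None of these changed sign, but the median response of block genes in Zhongshuang 9 (0.10) was -0.09 without submergence replicate 1. Of the values for single genes and single blocks under an alternative, 539 stayed within their spread or on their side of the threshold, 90 moved by more than the spread, and 15 lost a call; the cause was not tested. Depth limits genes near 3 counts per library, and 3 libraries per group limit all tests.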
